A study of Mus musculus with 4 samples.

Results

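The extracellular matrix genes described here encode collagens, laminins, proteoglycans, the glycoproteins that join them, and the metalloproteinases that cut them. They were chosen by gene symbol from the authors' deposited table of genes that differ between 2 groups of mouse brain samples, leaving out Adamts4 and Hapln2, and by a mean expression level of at least 1 over the 4 samples. Of 177 mouse genes whose symbols match, 71 had a row in the table and 61 had that mean level. The whole table lists 5282 genes, of which 4845 had that mean level. All 61 are protein-coding in the GENCODE M21 annotation of GRCm38.

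RNA came from corpus callosum and cortex, pooled in each sample, of mice at postnatal day 15. The 2 samples of the SmoM2 group carry Pdgfra-creER and SmoM2, and the 2 samples of the wild type (WT) group are given no transgene by the labels, which do not say whether they carry the recombinase. Tamoxifen was injected from postnatal day 5 to 7 in all 4. SmoM2 is a mutant Smoothened that signals without hedgehog ligand, and Smoothened is the membrane protein through which that pathway runs. Pdgfra-creER is a recombinase switched on by tamoxifen in cells that use the Pdgfra promoter, which include oligodendrocyte precursors and also fibroblasts of the brain coverings, so the construct is not limited to the oligodendrocyte lineage. The sources used here do not say whether animals were pooled, nor their sex. The labels do not say whether the samples were separate animals, and the p-values therefore measure only the spread between these samples. Levels are the authors' values, which appear scaled for gene length and library size. Depth per sample is unknown because the table holds no read counts. Every gene in the table has an unadjusted p of at most 0.049997. Each gene below had therefore already differed on these samples, and counts are read against the other listed genes.

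In most tissues collagens and fibronectin are made by fibroblasts. In the brain such fibroblasts sit in the meninges and around larger vessels, while the parenchyma has little fibrillar collagen. Basement membranes, made of type IV collagen, laminins, nidogens and perlecan, wrap the vessels and lie under the meninges. The space between neurons and glia is instead filled by hyaluronan, the lectican proteoglycans that bind it and link proteins, and these come from neurons, astrocytes and oligodendrocyte precursors.

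Collagens, elastic fibre genes and matrix metalloproteinases were mostly higher in SmoM2, and none of the 61 genes fell. Adamts4, which was left out of the 61, fell, at 7.63 and 8.04 in SmoM2 against 11.59 and 12.22 in WT. Laminins, nidogens and perlecan were mostly higher in the authors' deposited table, but in 6 of the 9 the sample levels overlapped between groups. "Rose", "fell" and "called" are used where the authors' deposited table has an adjusted p no higher than 0.05. Of the 61 genes, 39 rose and none fell, which is 63.9% higher, whereas 22.0% of the 4845 listed genes of this level rose and 16.9% fell. The other 22 were not called; among them 17 leaned higher and 5, Adam19, Hapln4, Sparcl1, Thbs4 and Timp4, leaned lower by the authors' deposited table. A positive log2 fold change was thus listed for 91.8% of the 61 genes, against 52.5% of the 4845. All 22 have an unadjusted p of at most 0.05, as every listed gene does. Of the 61, 13 rose with a fold change in the authors' deposited table of 1 or more on the log2 scale, 21.3% against 3.49% of listed genes. Among the 13, Col13a1, Adamts9 and Thbs1 reached the mean level of 1 only through SmoM2, with WT means of 0.43, 0.735 and 0.875. So did Lama1 (WT mean 0.565) among the other called genes, and Timp1, Adamts16 and Col6a3 among those not called. These genes are part of the counts and shares given here, which were not redone without them. The median log2 fold change there was 0.75 for the 61 genes and 0.23 for the 4845. In some classes few genes were called: 1 of 4 hyaluronan-binding genes, 1 of 3 ADAM genes and 2 of 7 ADAMTS genes rose, shares near that of all listed genes, and 0 of 3 metalloproteinase inhibitors.

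The levels of the 4 samples show the same direction less cleanly. In 43 of the 61 genes, 70.5%, both SmoM2 levels were above both WT levels, and in 4 both were below, whereas the shares among listed genes were 49.5% and 35.5%. The levels overlapped in 14 of the 61 genes and in 728 of the 4845. Groups without overlap were thus common in the whole table, and counts of them by class below are read against these shares. Of the 39 called genes, 31 had groups that did not overlap and 8 had groups that did: Col3a1, Col5a1, Col4a1, Hspg2, Lama1, Lama4, Lamc1 and Nid1. By limma on log2(level + 1), the median log2 difference of the 61 genes was 0.59, against 0.25 for all fitted genes. With limma's own p-values, adjusted over the 4845 genes, 23 of the 61 passed at 0.05 and all were higher, 37.7% against 26.7% of listed genes (6.73% passed as lower); 19 of the 23 were also called by the authors. Adjusted over the 57010 tests that the authors' adjusted p-values imply, none of the 61 passed in limma and 6 of all listed genes did. Of the 61, 34 had an unadjusted limma p of at most 0.05. Unless stated, limma adjusted p-values of single genes below are over the 4845 genes. Those genes were already selected by p on these same samples, so such values are not alike to the authors' adjusted p. An exact permutation test of 2 samples against 2 cannot go below p = 0.333 and was not used for single genes.

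**Figure D1:**
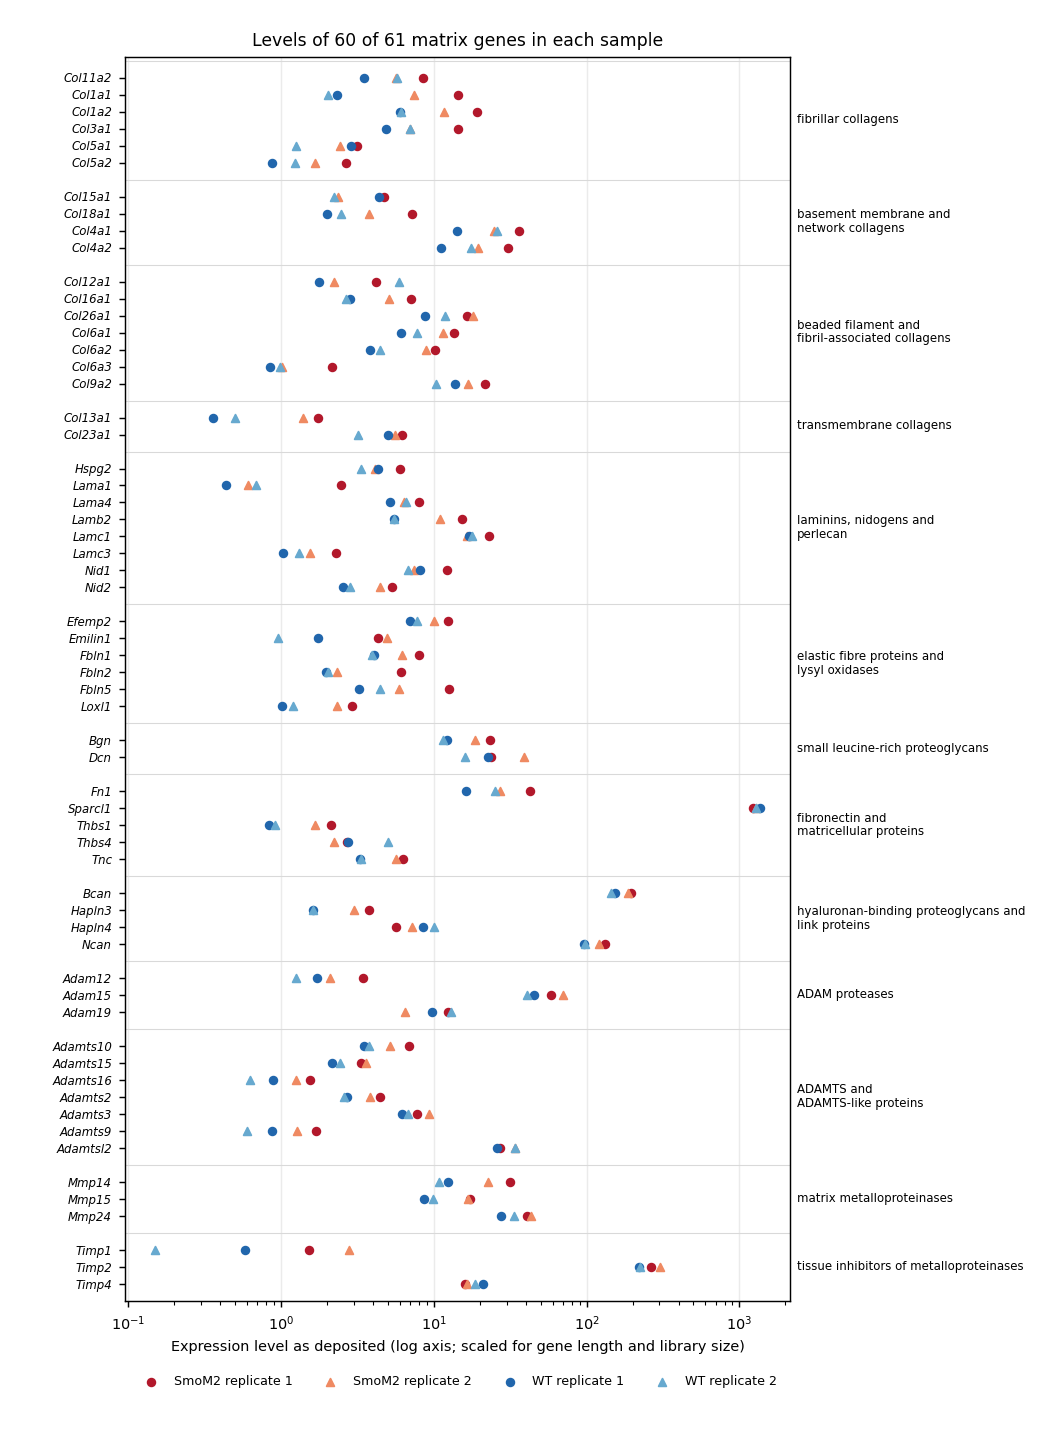
Expression level of 60 of the 61 matrix genes in the 4 samples, on a log axis, grouped by class; each point is a sample. Both SmoM2 samples lie above both WT samples for 43 genes, and SmoM2 replicate 1 is often the farthest to the right.

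SmoM2 replicate 1 carried more of the difference than SmoM2 replicate 2. Among the 39 called genes it was the higher of the pair in 34, or 87.2%, whereas among all listed genes that rose it was the higher in 49.4%. Leaving it out shrank the limma log2 difference of 14 of the 39 genes by more than 1.5 times, and the median of the 61 went to 0.41. Leaving out SmoM2 replicate 2 did so for 1 gene, WT replicate 1 for 4 and WT replicate 2 for 5. In proportion, the 7 that lost most were Lamc1, Nid1, Lama1, Hspg2 and Lama4 of basement membranes, the fibulin gene Fbln2 and the fibrillar collagen gene Col3a1.

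**Figure D2:**
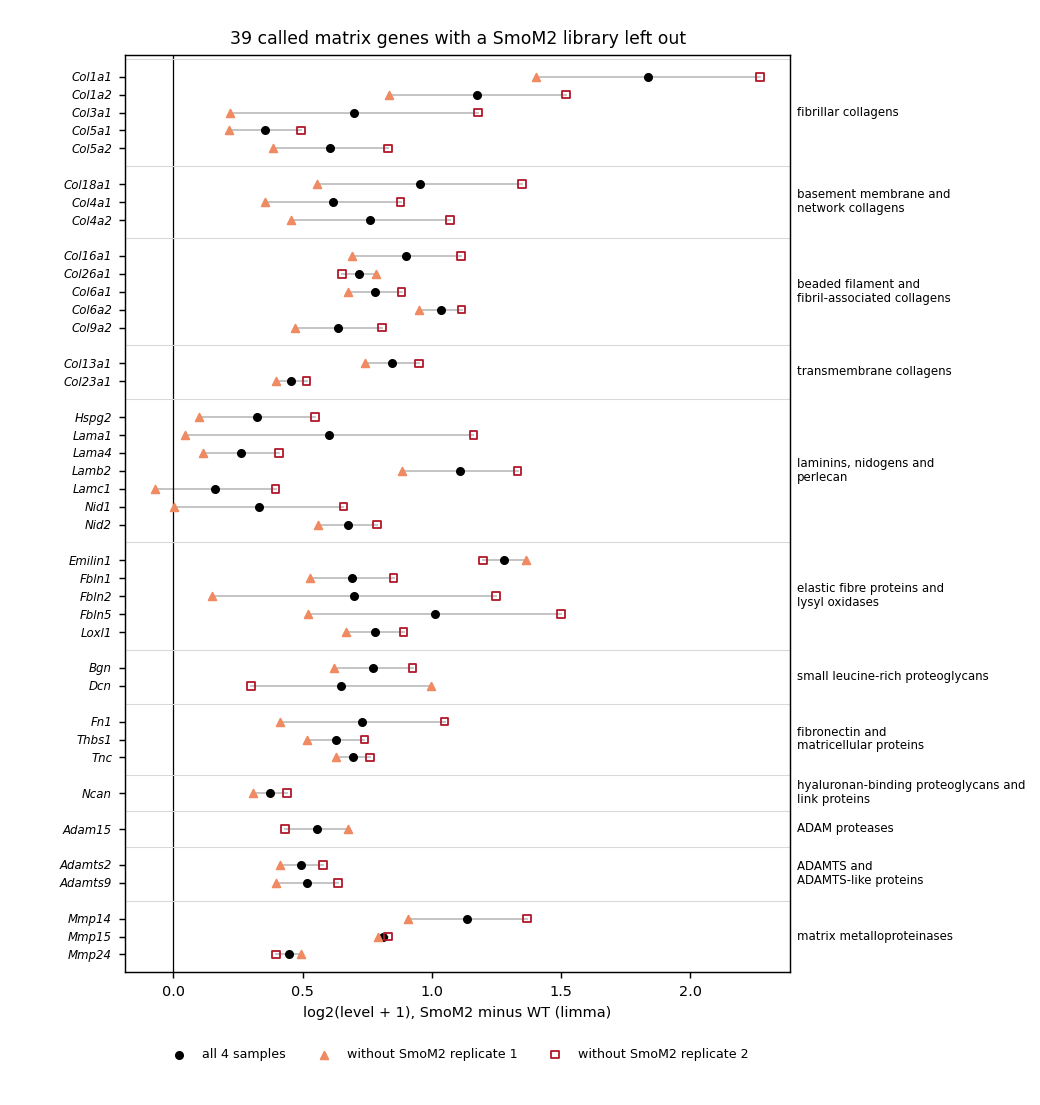
Limma log2 difference (SmoM2 minus WT, log2(level + 1)) of the 39 called genes with all 4 samples, without SmoM2 replicate 1 and without SmoM2 replicate 2. Lamc1 falls below 0 without SmoM2 replicate 1, and Nid1 and Lama1 come close to it.

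Among markers of cells that make matrix, those of fibroblasts and mural cells were mostly higher in SmoM2, and endothelial markers went both ways. Beside the marker lists here and in the next paragraph, 22.0% of the 4845 listed genes rose and 16.9% fell. Of 12 fibroblast markers that are not matrix genes, such as the GABA transporter gene Slc6a13 and the retinoic acid enzyme gene Aldh1a2, 11 had a row and all 11 rose. Of the 11, 9 had a mean level of at least 1, while Foxc2 and Foxd1 were below it at 0.80 and 0.845. The summed level of the 11 was 1956 and 1996 in SmoM2 against 1085 and 446 in WT. Most of it came from Ptgds, the prostaglandin D synthase gene, which oligodendrocytes and choroid plexus also express. Of 9 markers of mural cells, the pericytes and smooth muscle of vessel walls, 5 had a row and 3 rose, with summed levels of 136 and 113 in SmoM2 against 72.7 and 55.9 in WT. Endothelial markers had 6 of 10 in the table, of which 3 rose and 2 fell, with summed levels of 271 and 191 in SmoM2 against 261 and 220 in WT. No marker with a row was listed at 0 in every sample. Pdgfra, the gene whose promoter drives the recombinase, had no row and was not analysed here. In bulk tissue, more cells of a type and more RNA per cell cannot be told apart. The part of these cells in the matrix differences was not tested.

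Other marker lists differed between the groups too. Of 7 choroid plexus markers 5 fell, with summed levels of 77.6 and 631 in SmoM2 against 1224 and 1189 in WT. SmoM2 replicate 1 was the lower of its pair. Most of each sum came from Ttr, at 71.24 and 618.04 in SmoM2 against 1202.66 and 1162.48 in WT. All 5 blood markers, mostly haemoglobin genes, fell and summed to 65.6 and 120 in SmoM2 against 662 and 450 in WT. All 8 mature oligodendrocyte markers fell and summed to 3026 and 3410 in SmoM2 against 6312 and 5925 in WT. Astrocyte markers went both ways, with 2 of 4 called higher and 1 lower, and 2 of the 3 oligodendrocyte precursor markers with a row rose. The part of these cells in the matrix differences was not tested.

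**Figure D3:**
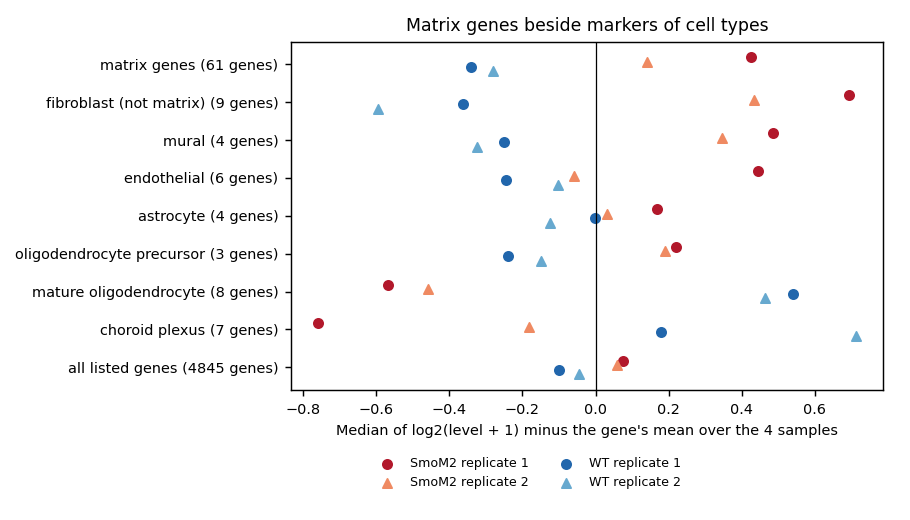
Median over each gene set of log2(level + 1) after subtracting each gene's mean over the 4 samples; each point is a sample. Matrix genes stand at 0.43 and 0.14 for SmoM2 against -0.34 and -0.28 for WT, and the fibroblast markers at 0.69 and 0.43 against -0.36 and -0.60.

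Fibrillar collagens assemble as rods of 3 chains into the fibres that give tissue its tensile strength. Of the 6 with a row, 5 rose and Col11a2 was not called. Col1a1 (ENSMUSG00000001506, chromosome 11, 94936224 to 94953042, GRCm38), the alpha 1 chain of type I collagen, read 14.36 and 7.42 in SmoM2 against 2.34 and 2.03 in WT. Both SmoM2 values were far above both WT values, and SmoM2 replicate 1 was the higher of its pair. The SmoM2 mean of 10.9 ± 4.91 and the WT mean of 2.19 ± 0.219 (SD, n = 2 per group) gave a limma log2 difference of 1.84 ± 0.30 (SE), and in the authors' deposited table its log2 fold change was 2.24 (adjusted p = 2.21e-47). Col1a2 (ENSMUSG00000029661, chromosome 6, 4504814 to 4541544), the alpha 2 chain, read 19.27 and 11.60 in SmoM2 against 6.0 and 6.14 in WT. The groups did not overlap, and its limma log2 difference was 1.18 ± 0.24 (SE).

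Col3a1, the single chain of type III collagen, which mixes with type I in soft tissue, read 14.49 and 6.97 in SmoM2 against 4.85 and 7.0 in WT. SmoM2 replicate 2 was level with WT replicate 2, so its rise in the authors' deposited table (log2 fold change 1.54, adjusted p = 3.63e-21) was not larger than the spread of the levels. The limma log2 difference was 0.70 ± 0.34 (SE), at an adjusted p of 0.126, and 0.22 without SmoM2 replicate 1. Col5a1 and Col5a2, minor chains that set fibril diameter, were both called at mean levels of 2.79 and 2.17 in SmoM2 against 2.06 and 1.06 in WT. Col5a2 read 2.65 and 1.68 against 0.88 and 1.24, without overlap. Col5a1 read 3.15 and 2.42 against 2.86 and 1.25, and without WT replicate 2 its limma log2 difference went from 0.35 to -0.04. Without SmoM2 replicate 1 the limma log2 difference was 0.21 for Col5a1 and 0.39 for Col5a2, from 0.61. Col11a2, a cartilage-type fibrillar chain, had groups that overlapped, at 8.49 and 5.66 against 3.51 and 5.73.

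The balance between partner chains differed between groups for some collagens. Type I collagen is normally built from more alpha 1 than alpha 2 chains. The ratio of the Col1a1 level to the Col1a2 level was 0.745 and 0.640 in SmoM2, as against 0.390 and 0.331 in WT. Both SmoM2 ratios were above both WT ratios, so Col1a1 stood higher relative to Col1a2 in each SmoM2 library. For Col4a1 over Col4a2 the ratio was 1.18 and 1.27 in SmoM2 against 1.26 and 1.47 in WT. These ratios overlapped, so for type IV collagen no shift between chains was seen beyond the spread. The Col6a1 to Col6a2 ratio was 1.33 and 1.29 in SmoM2 against 1.58 and 1.73 in WT, lower in both SmoM2 samples. These ratios have no test of their own, and 5 are drawn of the 9 that were computed.

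**Figure D4:**
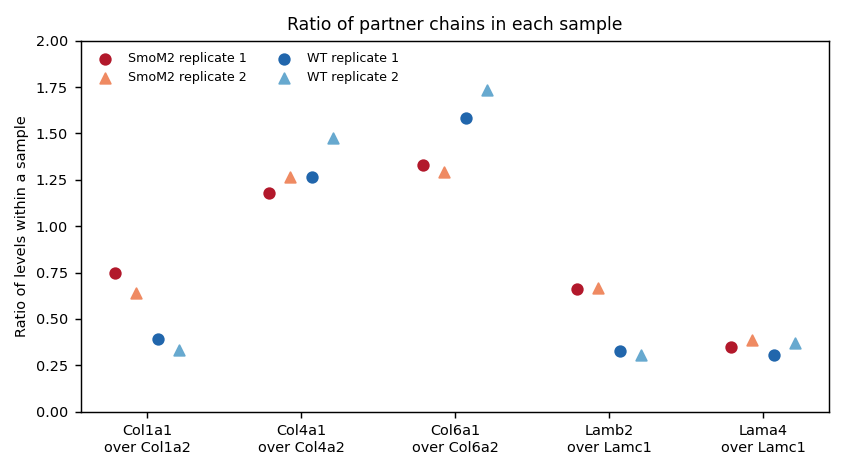
Ratio of the levels of partner chains within each sample, with a point for each sample. The SmoM2 samples lie above the WT samples for Col1a1 over Col1a2 and for Lamb2 over Lamc1, below them for Col6a1 over Col6a2, and overlap for Col4a1 over Col4a2 and Lama4 over Lamc1.

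Type IV collagen forms the sheet of every basement membrane. Col4a1 read 36.15 and 24.82 in SmoM2 against 14.16 and 25.89 in WT, and its partner Col4a2 read 30.63 and 19.62 against 11.21 and 17.56. In both genes SmoM2 replicate 2 stood near WT replicate 2, overlapping in Col4a1 and not in Col4a2. The authors' deposited table calls both (log2 fold change 0.65 and 0.76). The limma log2 differences were 0.62 ± 0.30 and 0.76 ± 0.27 (SE); without WT replicate 1 they were 0.20 and 0.46, and without SmoM2 replicate 1 they were 0.35 and 0.45. The 2 genes lie head to head on chromosome 8 of GRCm38, Col4a1 on the minus strand from 11198423 to 11312826 and Col4a2 on the plus strand from 11312805 to 11449287. At their starts the 2 genes share 22 bases, and reads there cannot be assigned unless the counting used strand, on which the sources used here say nothing.

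Col18a1, whose C-terminal fragment is endostatin, read 7.25 and 3.76 in SmoM2 against 2.01 and 2.48 in WT. Its groups did not overlap, and the limma log2 difference of 0.95 ± 0.30 (SE) went to 0.56 without SmoM2 replicate 1. Col15a1, its close relative in vascular basement membranes, read 4.71 and 2.37 against 4.41 and 2.23. The groups of Col15a1 covered the same range, and it was not called (adjusted p = 0.0523 in the authors' deposited table).

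Laminins are trimers of an alpha, a beta and a gamma chain, and nidogens and perlecan tie them to type IV collagen. All 9 genes of this class leaned higher in the authors' deposited table and 7 rose, but in 6 of the 9 the levels overlapped between groups. Both SmoM2 levels were above both WT levels in 3 of the 9, against 49.5% of all listed genes. The class median of the limma log2 differences was 0.33, against 0.25 for all fitted genes. Without SmoM2 replicate 1 it was 0.12, against 0.19 for all fitted genes. Lamb2 (ENSMUSG00000052911, chromosome 9, 108479736 to 108490530), the beta chain of vascular and pial laminins, stood apart with 15.34 and 10.99 in SmoM2 against 5.50 and 5.48 in WT. Its limma log2 difference was 1.11 ± 0.19 (SE, adjusted p = 0.0228), while the authors' deposited table has 0.75 on the log2 scale. Nid2, a nidogen, read 5.37 and 4.44 against 2.56 and 2.82 and did not overlap either.

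The other called genes of the class were highest in SmoM2 replicate 1 and overlapped WT in SmoM2 replicate 2. Lamc1, the gamma chain of most laminins and the member of highest level in this class, read 23.14 and 16.47 in SmoM2 against 16.89 and 17.83 in WT. SmoM2 replicate 2 was below both WT samples, and the limma log2 difference of Lamc1 went from 0.16 to -0.07 when SmoM2 replicate 1 was left out. Nid1 read 12.25 and 7.42 against 8.10 and 6.75, and its limma log2 difference likewise went from 0.33 to 0.0038, and to 0.22 without WT replicate 2. Lama1, the alpha chain of pial laminin, read 2.49 and 0.61 against 0.44 and 0.69, so SmoM2 replicate 1 was the one high value, and its limma log2 difference of 0.60 was 0.046 without it. Hspg2, which encodes perlecan, read 6.02 and 4.15 against 4.34 and 3.32. The value of 0.97 that the authors' deposited table lists for it on the log2 scale compares with a limma log2 difference of 0.32 ± 0.23 (SE), which was 0.10 without SmoM2 replicate 1 and 0.17 without WT replicate 2. Lama4, the alpha chain of endothelial laminin, overlapped too, at 8.05 and 6.39 against 5.14 and 6.58, and its limma log2 difference of 0.26 was 0.12 without SmoM2 replicate 1 and 0.11 without WT replicate 1. Lamc3, a gamma chain, was not called. The Lamb2 to Lamc1 ratio of levels was 0.663 and 0.667 in SmoM2 against 0.326 and 0.307 in WT, while Lama4 over Lamc1 overlapped. The 6 endothelial markers with a row went both ways: 4 were higher in both SmoM2 samples than in WT, and 2, Ly6c1 and Slco1a4, fell. Ly6c1 read 74.23 and 47.53 against 134.42 and 93.22. Their part in the laminin values was not tested.

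Type VI collagen makes beaded filaments around fibroblasts and vessels, and fibril-associated collagens coat larger fibres. Of 7 such genes with a row, 5 rose. Col6a2 read 10.13 and 8.94 in SmoM2 against 3.84 and 4.45 in WT, and Col6a1 read 13.48 and 11.53 against 6.07 and 7.72. For these the replicates were close and the groups far apart, with limma log2 differences of 1.03 ± 0.17 and 0.78 ± 0.17 (SE, adjusted p = 0.0219 and 0.0316). Both lie on the minus strand of chromosome 10 of GRCm38, Col6a2 from 76595762 to 76623630 and Col6a1 from 76708792 to 76726168. Col6a3, the third chain, is encoded on chromosome 1 and was not called, at 2.16 and 1.01 against 0.85 and 0.98.

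Col16a1, a fibril-associated collagen, read 7.15 and 5.07 in SmoM2 against 2.85 and 2.68 in WT, and its limma log2 difference was 0.90 ± 0.21 (SE). Col26a1 read 16.52 and 18.16 against 8.72 and 11.76. Col9a2, a fibril-associated chain best known from cartilage, read 21.57 and 16.87 against 13.67 and 10.34 and had the highest mean level of the class. None of these 3 overlapped between groups. Col12a1, which binds type I fibres, was the member whose sign differed between sources: it read 4.18 and 2.22 in SmoM2 against 1.78 and 5.91 in WT, a limma log2 difference of -0.10 ± 0.46 (SE), whereas the authors' deposited table lists 0.58 on the log2 scale (adjusted p = 0.172).

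Both transmembrane collagens with a row rose. Col13a1 (ENSMUSG00000058806, chromosome 10, 61838236 to 61979108), a membrane-anchored collagen of cell-matrix contacts, had the highest log2 fold change of the 61 by the authors' deposited table, at 2.41. It read 1.76 and 1.39 in SmoM2 against 0.36 and 0.50 in WT. The groups did not overlap, but the level is low: its mean of 1.00 over the 4 samples reached the threshold of 1 only through SmoM2, with 1.58 there and 0.43 in WT, so its rank is a description. On these levels the limma log2 difference on the log2(level + 1) scale was 0.85 ± 0.26 (SE, adjusted p = 0.0510). Col23a1 read 6.18 and 5.61 against 4.99 and 3.21, and its limma log2 difference of 0.46 was 0.20 without WT replicate 2.

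Some of the members lie beside each other in the genome. Of neighbours within 100000 bases, Col4a1 with Col4a2, Col6a1 with Col6a2 and Col3a1 with Col5a2 had both genes called. Col3a1 ends 24614 bases from Col5a2 on chromosome 1, and by the authors' deposited table the pair stood at 1.54 and 0.97 on the log2 scale. Hapln4 and Ncan, 2222 bases apart on chromosome 8, stood at -0.46 and 0.30 on that scale in the authors' deposited table, and Ncan was the called gene of the pair.

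Promoter sequences from RefSeq (GRCm38.p6) were found for 41 of the 61 genes, as windows of 300 bases around each start. The 250 bases before the start are printed for 4 genes that rose and whose window lies outside the GENCODE gene model, to show how unlike the promoters of genes that rose together can be. They are from chr1:45311288-45311537 (plus strand, Col3a1), chr10:61979109-61979358 (minus strand, Col13a1), chr4:130047590-130047839 (plus strand, Col16a1) and chr14:54431348-54431597 (plus strand, Mmp14). Each runs 5′ to 3′, and capitals mark matches on either strand to GGGCGG (the GC box), CCAAT (the CCAAT box), TATAAA (the TATA box) or GACCACCCA (the core of sites bound by GLI factors, the transcription factors of the hedgehog pathway).
Col3a1: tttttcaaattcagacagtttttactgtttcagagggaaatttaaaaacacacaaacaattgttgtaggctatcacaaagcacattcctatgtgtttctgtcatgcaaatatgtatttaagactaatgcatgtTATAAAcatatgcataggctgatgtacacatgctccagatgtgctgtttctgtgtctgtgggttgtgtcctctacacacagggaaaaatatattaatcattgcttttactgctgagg
Col13a1: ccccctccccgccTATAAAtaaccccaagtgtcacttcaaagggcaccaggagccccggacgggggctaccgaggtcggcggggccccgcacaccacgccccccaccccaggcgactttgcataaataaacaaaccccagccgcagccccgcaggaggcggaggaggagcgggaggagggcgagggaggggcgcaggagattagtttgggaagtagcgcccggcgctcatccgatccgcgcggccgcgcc
Col16a1: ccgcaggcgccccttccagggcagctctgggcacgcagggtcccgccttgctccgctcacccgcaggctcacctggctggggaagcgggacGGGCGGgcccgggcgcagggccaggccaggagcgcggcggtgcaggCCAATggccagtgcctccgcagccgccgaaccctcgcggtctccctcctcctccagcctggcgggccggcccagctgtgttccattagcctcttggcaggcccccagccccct
Mmp14: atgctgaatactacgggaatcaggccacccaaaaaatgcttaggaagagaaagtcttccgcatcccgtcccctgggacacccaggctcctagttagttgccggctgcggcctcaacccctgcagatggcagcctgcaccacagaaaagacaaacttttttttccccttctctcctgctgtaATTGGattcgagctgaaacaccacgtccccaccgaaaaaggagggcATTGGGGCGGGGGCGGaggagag
The Col3a1 window was 35.2% G and C with 1 TATA box match, which lies near the middle of the window and away from the start. The Col16a1 window was 75.6% G and C with 1 GC box and 1 CCAAT match. Mmp14 had 2 matches to each of GGGCGG and CCAAT, and 1 CCAAT match overlaps a GC box match there. Col13a1 had 1 TATA box match far from the start and a GC share of 68.8%. Over the full windows, GGGCGG was present for 32 of the 41 matrix genes, 78.0%, against 70.1% of listed genes and 38.2% of all genes with a promoter. TATAAA was present for 17.1%, 8.90% and 15.7%, and CCAAT for 34.1%, 42.1% and 41.1%. GACCACCCA was in 0 of the 41 windows, and in 0.279% of listed genes and 0.289% of all genes. These are matches of letters in short windows and not binding sites.

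Elastic fibres are built on microfibrils with the help of fibulins, emilins and lysyl oxidases, the enzymes that cross-link collagen and elastin. Of 6 genes with a row at this level, 5 rose, and in all 6 the groups did not overlap. Emilin1, a glycoprotein at the surface of elastic fibres, read 4.31 and 4.96 in SmoM2 against 1.75 and 0.95 in WT, a limma log2 difference of 1.28 ± 0.25 (SE, adjusted p = 0.0268). Loxl1, a lysyl oxidase needed for elastic fibre upkeep, read 2.90 and 2.34 against 1.01 and 1.20. Fbln1, which binds fibronectin and basement membranes, read 8.0 and 6.20 against 4.05 and 3.92. In these 3 genes the SmoM2 replicates were close to each other.

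Fbln5 and Fbln2 rested more on SmoM2 replicate 1. Fbln5, which guides elastin assembly, read 12.58 and 5.89 in SmoM2 against 3.22 and 4.46 in WT, and its limma log2 difference went from 1.01 to 0.52 without that library. Fbln2 read 6.13 and 2.33 against 1.96 and 2.04, and went from 0.70 to 0.15. Efemp2, also called fibulin 4, had levels that did not overlap, at 12.34 and 10.01 against 6.95 and 7.78, but was not called (adjusted p = 0.349 in the authors' deposited table).

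Decorin and biglycan are small proteoglycans that bind collagen fibrils, and both rose. Bgn (biglycan) read 23.31 and 18.67 in SmoM2 against 12.15 and 11.45 in WT, a limma log2 difference of 0.77 ± 0.15 (SE, adjusted p = 0.0266). Dcn (decorin) read 23.63 and 38.92 against 22.52 and 16.04. Unlike most of the called genes Dcn was highest in SmoM2 replicate 2, and SmoM2 replicate 1 was close to WT replicate 1. Its limma log2 difference of 0.65 ± 0.26 (SE) became 0.30 if SmoM2 replicate 2 was dropped and 0.41 if WT replicate 2 was.

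Fibronectin and the matricellular proteins modulate how cells attach. Fn1 (fibronectin) read 42.87 and 27.22 in SmoM2 against 16.15 and 25.18 in WT, without overlap but with SmoM2 replicate 2 near WT replicate 2. Its limma log2 difference of 0.73 ± 0.27 (SE) became 0.41 if SmoM2 replicate 1 was dropped and 0.43 if WT replicate 1 was. Tnc, the glial glycoprotein tenascin C, was much tighter, at 6.31 and 5.68 against 3.30 and 3.33, with a limma log2 difference of 0.70 ± 0.18 (SE, adjusted p = 0.0370). Thbs1, which encodes a thrombospondin that activates latent TGF-beta, read 2.13 and 1.68 against 0.84 and 0.91.

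The class also holds 2 genes that were not called and leaned lower. Sparcl1, also called hevin, a synapse-promoting protein of astrocytes, had the highest level of all 61 genes, at 1236 and 1281 in SmoM2 against 1368 and 1290 in WT. Both SmoM2 values were below both WT values but by less than the standard error, with a limma log2 difference of -0.08 ± 0.09 (SE). Thbs4 read 2.71 and 2.21 against 2.76 and 4.99 and was not called. Without Sparcl1, the 60 other genes summed to levels of 1285 and 1195 in SmoM2 against 866 and 906 in WT.

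The brain's own interstitial matrix had 4 genes with a row at this level, 1 of them called, and a median log2 fold change of 0.30 by the authors' deposited table. Ncan (neurocan), a lectican of neurons and astrocytes, read 131.42 and 120.05 in SmoM2 against 95.84 and 97.55 in WT and rose, with a limma log2 difference of 0.37 ± 0.09 (SE, adjusted p = 0.0352). Bcan (brevican), the lectican of highest level here, read 195.86 and 187.31 against 153.29 and 145.33. Bcan was not called (adjusted p = 0.0616 in the authors' deposited table), though its groups did not overlap. Its limma adjusted p was 0.0346 over the 4845 genes and 0.407 over the 57010 tests that the authors' values imply. Hapln4, a link protein of perineuronal nets, went the other way without a call, at 5.65 and 7.20 against 8.53 and 10.09. Hapln3 was at 3.78 and 3.01 against 1.63 and 1.62 and was not called either. Whether this class differs from the collagens was not tested.

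All 3 matrix metalloproteinases with a row at this level rose, and in none did the groups overlap. Mmp14 (ENSMUSG00000000957, chromosome 14, 54431612 to 54445364), the membrane-bound enzyme that cleaves fibrillar collagen and activates MMP2, read 31.60 and 22.64 in SmoM2 against 12.47 and 10.81 in WT, a limma log2 difference of 1.14 ± 0.18 (SE, adjusted p = 0.0219). Mmp15, a related membrane-bound enzyme, read 17.24 and 16.74 against 8.63 and 9.92, with 0.81 ± 0.14 (SE, adjusted p = 0.0227). Mmp24, a membrane-bound enzyme of neurons, read 40.47 and 43.37 against 27.70 and 33.54. The limma log2 difference of Mmp15 stayed between 0.79 and 0.83 when a SmoM2 library was left out.

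The ADAM and ADAMTS families hold proteases and cell adhesion proteins that act at the cell surface and in the matrix. Adam15, which encodes a membrane-bound disintegrin, was the called member of 3 ADAM genes, at 58.65 and 69.69 in SmoM2 against 45.55 and 41.03 in WT. Adam19 read 12.44 and 6.47 against 9.79 and 12.96 and overlapped. All 7 ADAMTS and ADAMTS-like genes leaned higher in the authors' deposited table. In 6 both SmoM2 levels were above both WT levels, as in 49.5% of listed genes, and only 728 of 4845 listed genes overlapped. Of the 7, 2 rose, a share near the 22.0% of listed genes. These were Adamts2, which trims the ends of procollagens I and III, at 4.44 and 3.85 against 2.72 and 2.57, and Adamts9, at 1.69 and 1.28 against 0.87 and 0.60. Adamtsl2, of highest level in this class, read 27.23 and 34.05 against 25.83 and 33.98, and its groups overlapped.

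The inhibitors of these enzymes had 3 members and none was called. Timp2, the most abundant, read 264.24 and 300.20 in SmoM2 against 219.17 and 222.56 in WT. Its adjusted p was 0.0631 by the authors' deposited table. By limma it was 0.0420 over the 4845 genes and 0.494 over 57010 tests, the number behind the authors' value. Timp1, an inducible inhibitor, read 1.52 and 2.79 against 0.58 and 0.15, and the authors' deposited table lists 2.40 on the log2 scale (adjusted p = 0.0744). Timp4, an inhibitor of brain and heart, was lower in both SmoM2 samples, at 15.94 and 16.44 against 20.92 and 18.67. No groups overlapped among the 3, as in most listed genes, of which 728 of 4845 overlapped. Timp4 shares exon sequence with the opposite-strand gene Syn2, as 16 of the 61 genes do with some gene of the other strand, so strand-blind counting could mix their reads.

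**Figure D5:**
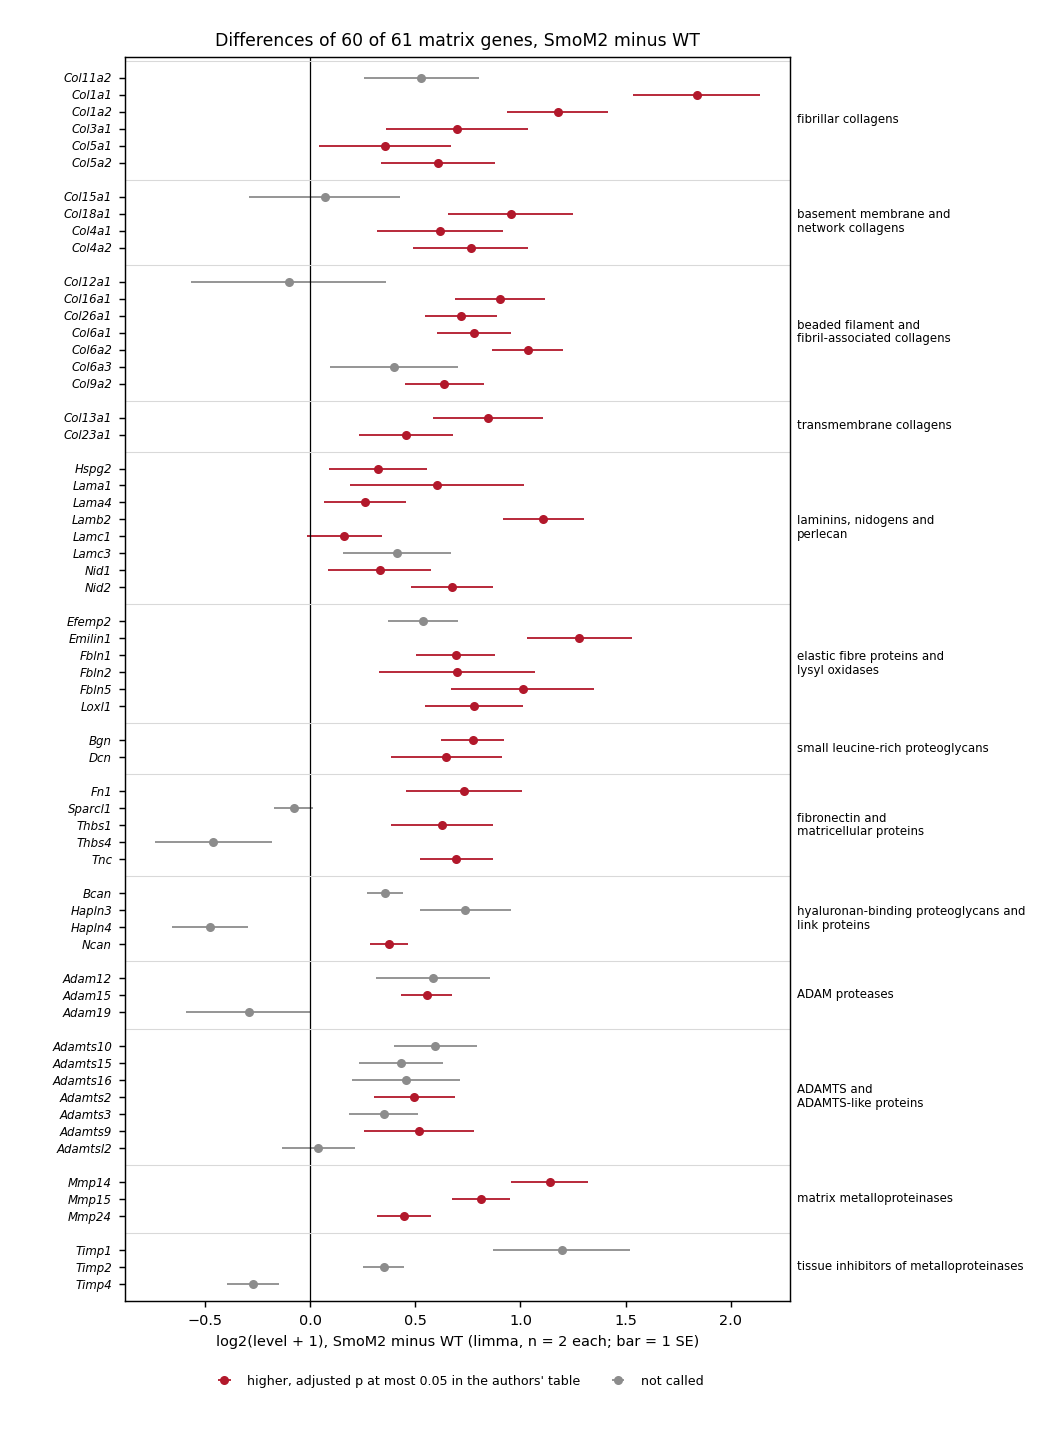
Limma log2 difference on log2(level + 1), SmoM2 minus WT, with its standard error (n = 2 each), for 60 of the 61 matrix genes by class; filled red points are called in the authors' deposited table. Col1a1 is the highest at 1.84, and the lowest, Hapln4 at -0.48, is not called.

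Genes that act on matrix but lie outside the symbol rule gave mixed counts. Beside them, 22.0% of the 4845 listed genes rose, 16.9% fell and 49.5% were higher without overlap. Collagen processing enzymes and chaperones had 6 of 23 genes in the table, and 5 rose: P4ha3, Pcolce, P3h3, Fkbp10 and Serpinh1. P4ha3, a prolyl hydroxylase of collagen chains, read 4.90 and 4.56 in SmoM2 against 1.68 and 1.44 in WT. Pcolce, which speeds the trimming of procollagen, read 10.16 and 10.20 against 4.45 and 3.72. P3h3 read 12.98 and 7.16 against 4.67 and 4.72. All 6 genes of this list had groups that did not overlap, with higher SmoM2 levels.

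Matrix receptors went both ways. Of 29 in the list, 8 had a row with a mean level of at least 1; Sdc3 and Bcam rose, and Sdc4, Itgav, Itgb8 and Cd47 fell. Sdc3, a syndecan of neurons, read 209.75 and 214.55 in SmoM2 against 129.29 and 131.67 in WT. Sdc4, a syndecan that binds fibronectin, read 26.24 and 27.03 against 46.72 and 36.05. Bcam, a laminin receptor, read 11.73 and 11.54 against 7.53 and 7.10. In TGF-beta signalling, 4 of the 10 genes with a row rose, against 22.0% of listed genes: Tgfb1, Ltbp4, Eng and Ltbp3, the last with groups that overlapped. Tgfbr1 and Skil leaned lower without a call. The part of this pathway in the collagen values was not tested. Tgfb1 read 13.03 and 10.26 against 6.97 and 5.15, Ltbp4 31.18 and 33.34 against 21.57 and 26.91, and Eng 26.37 and 21.87 against 14.60 and 16.97.

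Of 24 genes of hyaluronan and chondroitin sulfate metabolism, 6 had a row, and Hyal2, a hyaluronidase, and Chpf, a chondroitin polymerizing factor, rose. For this list and the next, 22.0% of listed genes rose and 16.9% fell, and 2 of 6 is near the first share. Hyal2 read 12.66 and 13.87 in SmoM2 against 7.90 and 7.67 in WT, and Chpf 71.22 and 73.76 against 52.84 and 55.39. Other matrix proteins had 22 of 40 genes in the table with a mean level of at least 1, of which 10 rose and 2, Tnr and Matn2, fell. Spp1 (osteopontin) read 10.48 and 4.47 in SmoM2 against 2.86 and 3.21 in WT. Fmod, a proteoglycan that binds collagen, read 12.85 and 11.27 against 6.14 and 3.41. Eln (elastin) read 42.67 and 14.97 against 9.74 and 16.63, so its rise in the authors' deposited table lay in SmoM2 replicate 1.

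The level threshold left out 10 genes with a row, of which Col4a6 and Col7a1 were called higher. Just below it were Col7a1 at a mean level of 0.870 and Col8a2 at 0.905, and just above it Col13a1 at 1.00 and Lama1 at 1.06. Col7a1 read 1.88 and 0.23 in SmoM2 against 0.12 and 1.25 in WT, and its groups overlapped.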

How the data were processed

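Libraries were made with the TruSeq kit from 1 ug of total RNA, per the labels' protocols. The submitters' processing notes name RSEM, DESeq2 and GRCm38.p6, with no version or role. Columns were tied to samples by the pairing in the series' design text. The authors' deposited table gives a signal for every gene in each sample, called level here. Its values look scaled for length and depth, and the unit, TPM or FPKM, is not stated. Beside the levels the authors deposited the ratio of the groups (SmoM2 over WT), its log2, and p-values before and after adjustment. Calls use that adjusted p-value at 0.05. Differences and standard errors come from limma 3.58.1 in R 4.3.3, with a mean-variance trend, on log2(level + 1) for all 4845 listed genes whose level averaged 1 or more, which understates changes of low genes. The fit was tested on simulated data. Coordinates are from GENCODE M21.

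Gene symbols were sorted into 13 classes by protein role. The genes described, the classes and the other lists were chosen with earlier results of these data known. Named in each class were the gene of highest level and up to 4 called genes of largest absolute log2 fold change, with every gene of log2 fold change 1 or more; from each other list, up to 3 called genes. Further genes were named after their values were seen, as were the GC, CCAAT and TATA motifs. Also tried were quantile normalization, equal medians, pseudocounts of 0.1 and 5, no filter and a minimum mean level of 5, each library left out, a replicate block, stricter calls and limma's own calls. The counts include 1 gene of the 61 whose own values are not reported here.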

Additional observations from a re-analysis of the deposited data

How the results depend on the processing

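The number of matrix genes called higher, 39, went to 13 when a log2 fold change of at least 1 was also asked for, to 23 with limma's adjusted p over the fitted genes, and to 0 with limma adjusted over 57010 tests (an alternative chosen after seeing the data). Limma over the fitted genes called 11 higher after quantile normalization and 13 after equal medians. With a library left out, limma called 0 of the 61 in each case (lowest 0, highest 0, also chosen after seeing the data), where it called at most 22 of all 4845 genes and 21 to 37 of the 61 had an unadjusted p of at most 0.05; the lone sample of a group is then assumed to vary like the other group. The replicate block, with the replicate numbers of the titles, left 16 called; same-numbered samples share only a number, and their deviations correlated at -0.0934 over genes. None was called lower by the authors. Among the limma fits, only that after quantile normalization called a member lower, and this was Sparcl1. All 39 kept the direction of their levels under both pseudocounts and both scalings. A pseudocount cannot change the direction of the 31 called genes whose groups do not overlap. The block leaves every difference as it was in this balanced design, so it cannot test direction. Without SmoM2 replicate 1 (Lamc1 at -0.071) and without WT replicate 2 (Col5a1 at -0.04), 38 kept it, the range with a library left out being 38 to 39. With a minimum mean level of 5, 23 of the 39 are left to count. The median log2 difference of the 61 genes, 0.59, was 0.34 with a pseudocount of 5 and 0.41 after quantile normalization, and 0.41 to 0.74 with a library left out. Quantile normalization moved the median of all genes by -0.13; relative to all genes the 61 stood 0.34 higher before it and 0.29 higher after it, but 0.17 higher with a pseudocount of 5 and 0.22 higher without SmoM2 replicate 1.

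Class medians moved by more than the spread between replicates as follows. With a pseudocount of 5 they were 0.26 for ADAM genes (0.55 with 1), 0.21 for ADAMTS genes (0.45), 0.51 for beaded and fibril-associated collagens (0.72), 0.41 for elastic fibre genes (0.74), 0.23 for fibronectin and matricellular genes (0.63), 0.62 for metalloproteinases (0.81) and 0.27 for transmembrane collagens (0.65). With a pseudocount of 0.1 they were 0.63 for ADAMTS genes, 1.03 for elastic fibre genes and 1.10 for transmembrane collagens. Quantile normalization gave 0.39 for ADAM genes, 0.25 for ADAMTS genes, 0.25 for hyaluronan-binding genes (0.37) and 0.45 for transmembrane collagens. Equal medians gave 0.27 for hyaluronan-binding genes and 0.25 for metalloproteinase inhibitors (0.35). A minimum mean level of 5 leaves few genes and gave 0.13 for ADAM genes, 0.19 for ADAMTS genes, 0.33 for fibronectin and matricellular genes and 0.038 for inhibitors. Without a filter, metalloproteinases stood at 0.63. With a library left out they ran from 0.32 to 0.63 for ADAM genes, 0.41 to 0.54 for ADAMTS genes, 0.40 to 1.04 for basement membrane collagens, 0.53 to 1.04 for elastic fibre genes, 0.33 to 1.00 for fibrillar collagens and 0.12 to 0.60 for laminins, nidogens and perlecan, and Lamc1 alone ran from -0.071 to 0.40. The cause of these shifts was not tested beyond the pseudocount and the number of genes.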

Other observations

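For 11 of the 61 matrix genes the log2 fold change in the authors' deposited table and the log2 ratio of the mean levels were more than 0.3 apart, against 271 of 4818 listed genes with both means above 0. Among genes named here, the fold change in the authors' deposited table was the larger for Col12a1 (0.58 against -0.26), Col3a1 (1.54 against 0.86), Col15a1 (0.69 against 0.09) and Hspg2 (0.97 against 0.41). The same held for Col13a1 (2.41 against 1.87), Adamtsl2 (0.49 against 0.035) and Col5a1 (0.84 against 0.44). It was the smaller for Emilin1 (1.12 against 1.78), Lama1 (0.91 against 1.46) and Lamb2 (0.75 against 1.26). The cause of these gaps was not tested.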
